A study of Homo sapiens with 6 samples.

Results

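Of the 12516 γH2AX peaks called on chromosomes 1 to 22 in 4 deposited lists, 519 stood alone, with more than 500 kb between them and the nearest other peak of any list. The members were chosen by this distance, measured edge to edge after the 4 lists were pooled, and by nothing else. γH2AX was mapped by chromatin immunoprecipitation and sequencing with an antibody against the phosphorylated histone. DLD1 cells, a human line long established from a colorectal cancer, carried UNG (UNG+/+, called WT) or lacked it by knockout (UNG-/-, called KO), and were left untreated or given pemetrexed or cisplatin. There were 6 libraries, 1 per group, and a peak list was analysed here for each of the 4 drug-treated groups: WT pemetrexed, WT cisplatin, KO pemetrexed and KO cisplatin. The 2 untreated libraries were not analysed here. The sources used here give no dose or treatment time, and do not say whether the knockout cells were a single clone.

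H2AX is a variant of the core histone H2A, and its phosphorylated form, γH2AX, is laid down by damage-responsive kinases over long stretches of chromatin on both sides of a DNA double strand break. UNG is the glycosylase that cuts uracil out of DNA, the opening step of base excision repair. Pemetrexed is an antifolate that blocks thymidylate synthesis and so favours uracil in DNA, whereas cisplatin binds DNA bases and crosslinks them.

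The isolated peaks came mostly from the cisplatin lists and from WT pemetrexed, and hardly at all from KO pemetrexed. KO cisplatin gave 254 of the 519 (48.9%), WT pemetrexed 139 (26.8%), WT cisplatin 112 (21.6%) and KO pemetrexed 14 (2.70%). KO pemetrexed was the longest list, with 42.1% of all peaks on these chromosomes, and WT pemetrexed the shortest, with 7.28%. In the pooled lists 4.15% of peaks were isolated. The share was 15.3% of the 911 WT pemetrexed peaks (95% exact binomial interval 12.98 to 17.8%), 6.21% of the 1803 WT cisplatin peaks (5.14 to 7.43%), 5.60% of the 4532 KO cisplatin peaks (4.95 to 6.31%) and 0.266% of the 5270 KO pemetrexed peaks (0.145 to 0.445%). The shares ran in the reverse order of list length, and peaks of the same list count as neighbours. A longer or more clustered list is thus less isolated by the rule itself. These shares describe the spacing that the rule itself used, so no test was made on them. With 1 library per group there is no replicate check, the read depth is unknown, and every interval covers counting error only and treats neighbouring peaks as independent.

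The design asks how loss of UNG changed the γH2AX map after each drug. After pemetrexed the KO list held 14 isolated peaks against 139 in WT, a ratio of 0.101, from a list 5.78 times as long. The ratio of isolated shares, KO over WT, was 0.0174. On 20 of the 22 chromosomes WT pemetrexed had more isolated peaks than KO pemetrexed, and on none did KO have more. After cisplatin the KO list held 254 isolated peaks against 112, 2.27 times as many from a list 2.51 times as long. The ratio of shares there was 0.902, and the WT share was the higher on 13 chromosomes and the lower on 8. The cisplatin ratio was 1.22 (0.951 to 1.57) among peaks of at least 600 bp. It was 0.428 (0.386 to 0.473) when only peaks of the same list counted as neighbours.

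Between the drugs, the isolated share of KO pemetrexed was 0.0474 times that of KO cisplatin, from a list 1.16 times as long. In WT cells the order was the opposite, with a pemetrexed share 2.46 times the cisplatin share from a list 0.505 times as long. These ratios compare single libraries. The order of WT pemetrexed above both cisplatin lists and KO pemetrexed below them was present at 100 kb, where the shares were 48.7%, 30.8%, 26.3% and 4.16% for WT pemetrexed, WT cisplatin, KO cisplatin and KO pemetrexed. It was also present at 1 Mb, where they were 4.83%, 2.33%, 2.05% and 0.0949%. Beyond 2 Mb, 34 peaks remained. They were 6 of WT pemetrexed (0.659% of that list), 11 of WT cisplatin (0.610%), 16 of KO cisplatin (0.353%) and 1 of KO pemetrexed (0.0190%). The intervals of WT pemetrexed and both cisplatin lists overlap there. The KO cisplatin list weighed most on these levels. Without it the isolated shares were 30.0% in WT pemetrexed, 14.03% in WT cisplatin and 0.892% in KO pemetrexed, and without the WT cisplatin list that of KO pemetrexed was 0.455%.

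**Figure D1:**
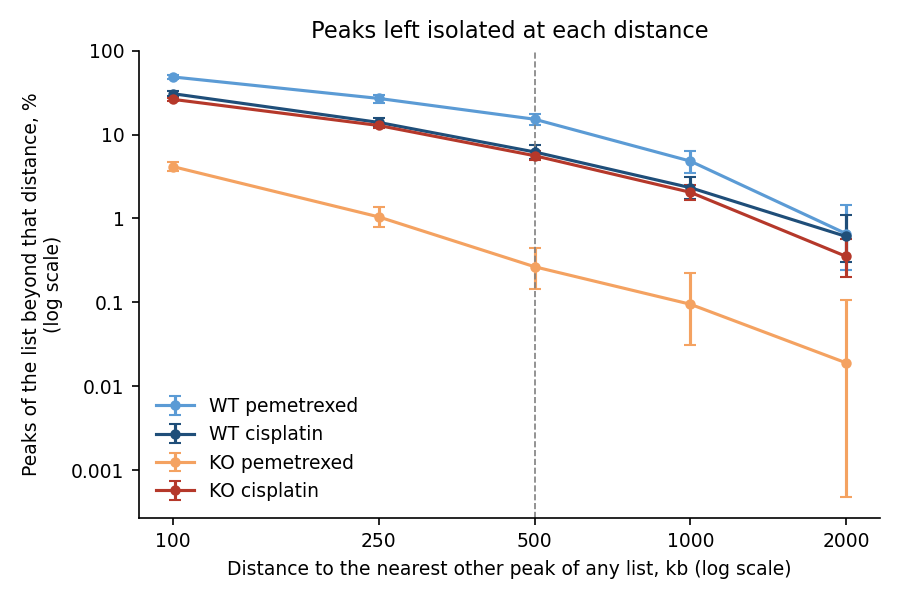
The share of each list's peaks (y axis, percent, log scale) that lie farther than a given distance (x axis, kb, log scale) from any other peak of the 4 lists. Points are single libraries, bars are 95% exact binomial intervals for counting error, and the dashed line marks 500 kb, where KO pemetrexed stands at 0.266% and the other lists at 5.60 to 15.3%.

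A member had to be far from its own list as well as from the others, so the distance to each other list was also taken alone. Of the KO pemetrexed peaks, 2.62% (138 of 5270) had no KO cisplatin peak within 500 kb. In the other direction, 33.5% of KO cisplatin peaks (1518 of 4532) had no KO pemetrexed peak within 500 kb, although the KO pemetrexed list is the longer of the pair. Of the WT pemetrexed peaks, 59.8% had no KO pemetrexed peak within that distance and 29.3% had no KO cisplatin peak. Of the WT cisplatin peaks, 34.6% and 14.6% did not. In both WT lists more peaks thus lacked a KO pemetrexed neighbour than a KO cisplatin neighbour.

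No isolated peak reached 2 kb, and in each list the isolated peaks had a lower median width than the rest. Over all lists their median width was 614 bp (quartiles 562 and 746, range 368 to 1528), against 878 bp (692 and 1216) for the 11997 other peaks. Peaks of at least 1 kb numbered 18 of the 519 (3.47%, 95% exact interval 2.07 to 5.43%), against 33.8% of all peaks. Peaks of at least 2 kb numbered 0 of 519 (a count of 3, or 0.578%, is the limit that a count of 0 allows), against 9.87% of all peaks. Width played no part in the choice of members, but peaks of a single library are not replicates, so these are descriptions without a test. Because the lists differ in width and in their share of the members, the widths are given list by list.

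In WT pemetrexed the 139 isolated peaks had a median width of 575 bp (quartiles 544 and 596, range 368 to 902, 95% binomial interval of the median 570 to 585), close to the 586 bp of the other peaks of that list. Isolated WT cisplatin peaks had a median of 587.5 bp (536 and 632, range 425 to 1528, interval of the median 574 to 599) against 627 bp for the others. Both WT sets were thus narrow whether isolated or not. Isolated KO cisplatin peaks had a median of 716 bp (607 and 822, range 390 to 1499, interval of the median 694 to 734) against 820 bp. The 14 isolated KO pemetrexed peaks had a median of 886 bp (761 and 1259, range 681 to 1394) against 1174 bp, and with so few peaks the interval of the median, 749 to 1351 bp, contains the value of the others. Of that list 22.7% of all peaks reached 2 kb, and 0 of the 14 did (exact upper bound 23.2%). With 14 peaks of 1 library this describes the members only, and no difference is read from it. The other lists had few such peaks anywhere (0.883% of KO cisplatin, 0.0555% of WT cisplatin and 0 WT pemetrexed peaks).

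The lists kept the same order of width among isolated peaks as among the rest. All 14 isolated KO pemetrexed peaks were wider than the upper quartile of the isolated WT pemetrexed peaks, and 7 of them were wider than the widest of these. The ranges overlapped between 681 and 902 bp. The median difference was 311 bp among isolated peaks and 588 bp among the others. After cisplatin, 199 of the 254 isolated KO peaks (78.3%) exceeded the WT median, none exceeded the widest WT peak, and the median difference was 128.5 bp among isolated peaks and 193 bp among the others. The 18 isolated peaks of at least 1 kb comprised 11 of KO cisplatin (4.33% of its isolated peaks, against 19.4% of that list), 6 of KO pemetrexed (42.9%, against 61.9%), 1 of WT cisplatin (0.893%, against 4.60%) and 0 of WT pemetrexed (against 0.988%).

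**Figure D2:**
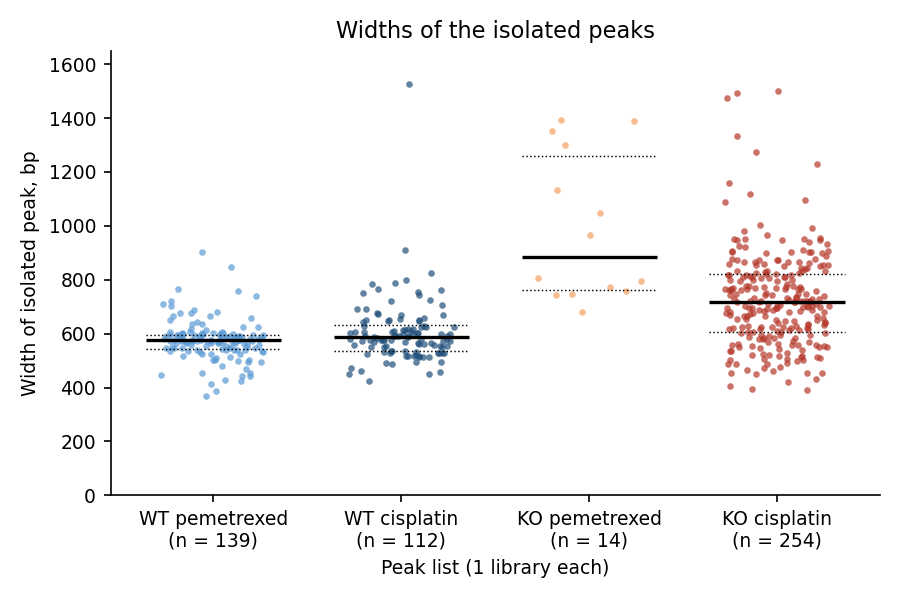
Width in bp (y axis) of each of the 519 isolated peaks, by list (x axis, 1 library each). Each dot is a peak, the solid line is the median and the dotted lines are the quartiles. WT peaks gather near 575 to 587.5 bp, and 7 of the 14 KO pemetrexed peaks lie above the widest isolated WT pemetrexed peak of 902 bp.

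In both KO lists and in WT cisplatin the median width was lower at each greater distance. KO pemetrexed peaks that overlapped a peak of another list had a median width of 1638 bp (n = 403), those with a neighbour under 10 kb away 1309 bp (n = 2976), those at 10 to 100 kb 1013 bp (n = 1672), those at 100 to 500 kb 898 bp (n = 205) and the isolated ones 886 bp (n = 14). KO cisplatin went from 883.5 bp for overlapping peaks through 843, 826 and 755.5 bp to 716 bp. WT cisplatin went from 698 bp through 655, 624 and 600 bp to 587.5 bp. WT pemetrexed ran from 597.5 bp through 585, 586 and 586 bp to 575 bp. The isolated median was the lowest in each list, but in all 4 lists its distance from the class at 100 to 500 kb was small beside the quartiles given above. Within the isolated set, the median at gaps of 500 kb to 1 Mb and beyond 1 Mb was 574 and 576 bp in WT pemetrexed, 590 and 578.5 bp in WT cisplatin and 716 bp in both ranges in KO cisplatin. It was 1049 bp (9 peaks) and 757 bp (5 peaks) in KO pemetrexed.

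**Figure D3:**
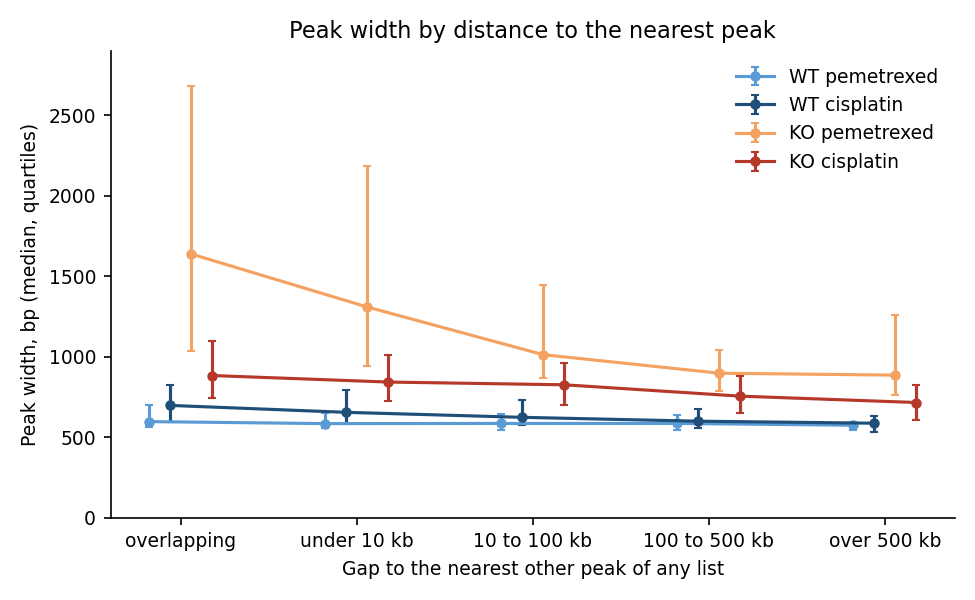
Median peak width in bp (y axis, bars from the lower to the upper quartile) by the gap to the nearest other peak of any list (x axis), for each list. KO pemetrexed goes from 1638 bp for overlapping peaks to 886 bp for isolated ones, and WT pemetrexed stays between 575 and 597.5 bp.

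The isolated places were found in 1 list each. A peak that overlapped a peak of another list has a gap of 0 and could not be a member, so overlapping peaks of different lists were also merged into single regions and the distance was taken between regions, a choice made after the data were seen. Of the 12049 regions, 3.66% held peaks of 2 or more lists. Among regions with a neighbour under 10 kb away the share was 6.02% (300 of 4983), at 10 to 100 kb it was 2.74% (127 of 4640) and at 100 to 500 kb 0.734% (14 of 1907). Of the 519 regions isolated by more than 500 kb, 0 held peaks of 2 or more lists. The limit that this count of 0 allows is 0.578% (3 counts), and the exact interval reaches 0.708%, within the interval of 0.402 to 1.23% for regions at 100 to 500 kb. The isolated regions were the same in number as the isolated peaks, since no shared region lay that far from its neighbours. Sharing and distance are both computed from the same peak positions, so the fall in share with distance is a description.

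**Figure D4:**
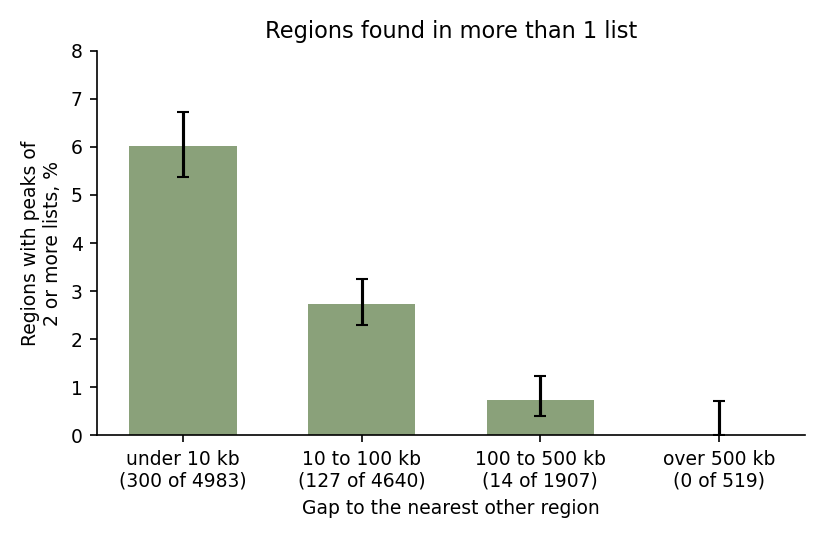
Share of regions with peaks of 2 or more lists (y axis, percent, from 0) by the gap to the nearest other region (x axis, with the number shared of all regions). Error bars are 95% exact binomial intervals for counting error, and the share goes from 6.02% under 10 kb to 0 of 519 beyond 500 kb.

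Isolated peaks were found on every chromosome from 1 to 22 except chromosome 22, and 13 of these 22 chromosomes held isolated peaks of all 4 lists. The isolated share was highest on chromosome 13, at 14.5% of its 172 peaks (95% exact interval 9.63 to 20.7%), followed by chromosome 6 (11.6% of 345), chromosome 4 (11.4% of 359), chromosome 18 (11.3% of 142) and chromosome 8 (10.3% of 388). The intervals of these 5 overlap. By number, chromosome 2 had the most, with 54, and chromosome 1 had 42. Chromosome 22 had 0 of 628 (exact upper bound 0.586%), chromosome 19 had 4 of 1245 (0.321%) and chromosomes 16 and 17 had 8 each (0.847% and 0.715%). Across the 22 chromosomes the isolated share was lower where there were more peaks per Mb (Spearman rho -0.94). The share is computed from the same peak positions as the density, so the rho is a description.

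Chromosomes 16, 17, 19 and 22, which are rich in genes, had the most peaks per Mb (10.7 to 19.6). By the rule, chromosomes so crowded cannot hold many isolated peaks, and gene content was not measured here. They held 20 isolated peaks, 3.85% of all isolated peaks (95% exact interval 2.37 to 5.89%). Against this stood 31.4% of all peaks and 9.58% of the span covered by the lists. Without the KO cisplatin list the share of isolated peaks there was 5.93%, and beyond 1 Mb it was 2.17%. By list, these chromosomes held 10 of the isolated KO cisplatin peaks (3.94%, against 24.5% of that list), 5 of WT cisplatin (4.46%, against 22.6%), 4 of WT pemetrexed (2.88%, against 14.7%) and 1 of the 14 of KO pemetrexed (against 43.3%). The gene-poor chromosomes 4, 13 and 18 had the fewest peaks per Mb (1.81 to 1.89). They held 82 isolated peaks (15.8%, 12.8 to 19.2%), against 5.38% of all peaks and 13.04% of the span. The share of isolated peaks there was 15.8% in WT pemetrexed (against 9.22% of that list), 16.96% in WT cisplatin (against 6.21%), 15.7% in KO cisplatin (against 6.42%) and 1 of 14 in KO pemetrexed (against 3.53%).

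**Figure D5:**
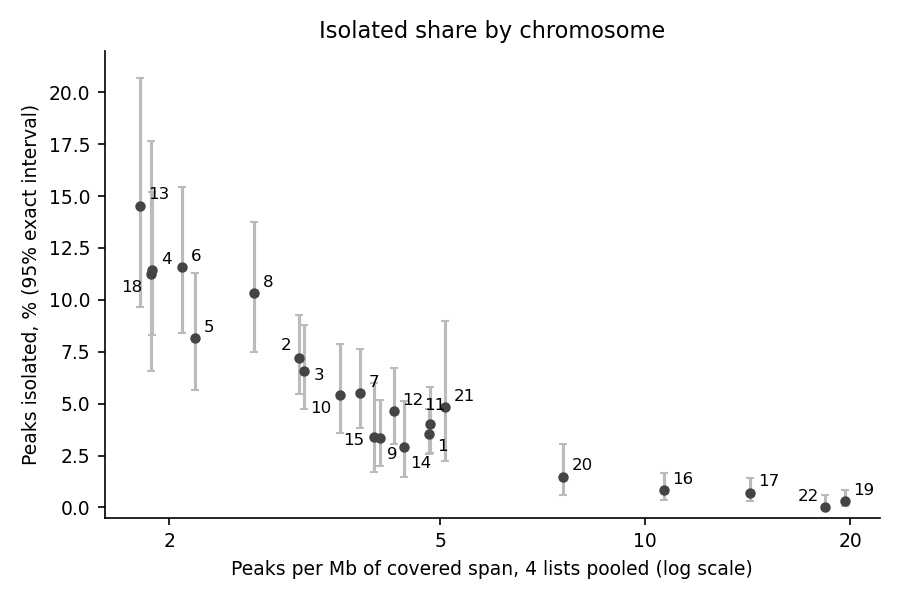
Percent of a chromosome's peaks that are isolated (y axis, bars are 95% exact binomial intervals) against its number of peaks per Mb of covered span (x axis, log scale), 4 lists pooled, with each chromosome's number beside its point. Chromosome 13 is highest at 14.5%, and chromosomes 16, 17, 19 and 22 lie below 1%.

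The members lay away from the chromosome ends and in sparsely marked surroundings. Counted from the outermost peaks of each chromosome, the terminal 5 Mb held 28 isolated peaks (5.39%, 95% exact interval 3.61 to 7.70%), against 27.6% of the other peaks, many of them KO pemetrexed. List by list the contrast was smaller in WT pemetrexed, where 6.47% of isolated peaks (3.003 to 11.9%) and 14.1% of the others lay there. In WT cisplatin the shares were 7.14% (3.13 to 13.6%) and 19.2%, and in KO cisplatin 4.33% (2.18 to 7.62%) and 20.6%. In KO pemetrexed they were 0 of 14 (exact upper bound 23.2%) and 38.1%. On chromosomes 13, 14, 15, 21 and 22, whose short arms carry little mapped sequence, the first peak does not mark the chromosome's end. An isolated peak had a median of 15 other peaks of any list within 5 Mb of its centre (quartiles 8 and 27.5), and another peak had 102 (41 and 185). The other peaks of the lists differed in this, with medians of 34 in WT pemetrexed, 62 in WT cisplatin, 69 in KO cisplatin and 138 in KO pemetrexed. The isolated peaks of the 4 lists had similar surroundings, with medians of 14 in WT pemetrexed, 16 in each cisplatin list and 16.5 in KO pemetrexed. Part of this follows from the rule, which empties the nearest 500 kb on each side.

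Together the 4 lists left 1311 stretches of more than 500 kb without a peak, and these made up 70.5% of the 2765 Mb between the first and last peaks of the chromosomes. Parts of the build without sequence, where no peak can be called, were not set apart. The isolated peaks sat between these stretches without peaks. For the 513 with a neighbour on both sides, the median gap was 772 kb on the nearer side and 1702 kb on the farther side. The nearer gap exceeded 1 Mb for 180 of them and 2 Mb for 32. The nearer gap did not differ much between lists, with medians over all isolated peaks of 797 kb in WT pemetrexed, 779 kb in WT cisplatin, 767 kb in KO cisplatin and 759.9 kb in KO pemetrexed. Isolated peaks made up 2.36% of the bases in peaks.

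The nearest neighbour of an isolated peak must itself border a stretch of more than 500 kb without a peak. With the first and last peak of each chromosome counted as doing so, 2147 peaks did. KO cisplatin supplied the nearest peak for 249 of the 519 (48.0%, against 51.4% of those 2147 peaks), WT pemetrexed for 132 (25.4%, against 19.05%), WT cisplatin for 111 (21.4%, against 20.8%) and KO pemetrexed for 27 (5.20%, against 8.71%). The neighbours were thus near those 2147 peaks in their share of both cisplatin lists, with WT pemetrexed above its share and KO pemetrexed below. The nearest peak was of the same list for 126 of 254 KO cisplatin peaks, 45 of 139 WT pemetrexed peaks, 22 of 112 WT cisplatin peaks and 0 of 14 KO pemetrexed peaks. For 216 isolated peaks (41.6%) the nearest peak was itself isolated, against 24.2% isolated among those 2147 peaks. Both shares come from the positions that the rule used, so this is a description.

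Isolated peaks often followed each other along a chromosome. In part this follows from the rule, since the peaks on both sides of a member border a stretch without peaks. While 175 (33.7%) stood between peaks that were not isolated, there were 62 runs of 2 in a row, 23 of 3 and 14 of 4, and 3 runs reached 8. These runs were picked out after their values were seen. The longest in bases was on chromosome 3 (74077284 to 102588423), where 28.5 Mb held 8 peaks, 5 of KO cisplatin and 3 of WT pemetrexed. A single stretch without a peak, the longest on that chromosome, made up 12.05 Mb of it. Another 8 peaks lay on chromosome 2 (135541501 to 144904115) over 9.36 Mb, 5 of WT pemetrexed, 2 of WT cisplatin and 1 of KO cisplatin. The other run of 8 was on chromosome 21 (10157646 to 23467733), over 13.3 Mb, with 5 peaks of KO cisplatin, 2 of WT pemetrexed and 1 of WT cisplatin. None of these 3 runs held a KO pemetrexed peak. Whether the stretches within these runs hold mapped sequence was not examined.

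The most isolated peak of all was a WT pemetrexed peak of 389 bp on chromosome 9 (66583468 to 66583857), 5.74 Mb from the next peak on its right and 28.2 Mb from that on its left. The stretch on its left was the longest without a peak in the pooled lists. Whether that stretch holds mapped sequence was not examined. The next 3 were KO cisplatin peaks. They spanned 752 bp on chromosome 11 (27484022 to 27484774, gap 5.52 Mb) and, on chromosome 13, 682 bp (65229799 to 65230481, gap 5.08 Mb) and 455 bp (57112962 to 57113417, gap 4.56 Mb). The pair on chromosome 13 were neighbours, with 8.12 Mb between them. The fifth was a WT cisplatin peak of 516 bp on chromosome 7 (12263278 to 12263794), 4.26 Mb from the nearest peak. In WT cisplatin the next was 693 bp on chromosome 13 (91906210 to 91906903, gap 3.24 Mb), and in WT pemetrexed it was 586 bp on chromosome 3 (433657 to 434243, gap 2.53 Mb), the first peak of its chromosome.

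The widest isolated peak was a WT cisplatin peak of 1528 bp on chromosome 21 (10157646 to 10159174), the first peak of that chromosome and 3.10 Mb from the next. The second widest of that list was 912 bp on chromosome 8 (541856 to 542768), which was also the first of its chromosome, and its narrowest was 425 bp on chromosome 1 (117170322 to 117170747). The widest isolated KO cisplatin peaks were 1499 bp on chromosome 2 (95103903 to 95105402, gap 1.07 Mb) and 1492 bp on chromosome 4 (190437052 to 190438544, gap 1.93 Mb), the last peak of chromosome 4. The narrowest of that list was 390 bp on chromosome 18 (40329216 to 40329606). In WT pemetrexed the widest was the last peak of chromosome 11 (134374478 to 134375380, 902 bp), followed by 847 bp on chromosome 9 (16465665 to 16466512), and the narrowest spanned 368 bp of chromosome 1 (92500640 to 92501008). Of these 6 peaks, the 2 widest of each of the 3 lists, 4 were the first or last peak of a chromosome. So were 6 of all 519 isolated peaks. They are not the 6 widest of all, since KO cisplatin had others wider than 912 bp, such as 1473 bp on chromosome 7. The 2 widest of KO pemetrexed, given below, had a neighbour on both sides.

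On the gene-rich chromosomes the peak with the largest gap was a WT pemetrexed peak of 552 bp on chromosome 16 (35115752 to 35116304, gap 1.19 Mb), with 9.83 Mb free of peaks on its right. On chromosome 17 it was a KO cisplatin peak of 716 bp (14101032 to 14101748, gap 1.17 Mb). On chromosome 19 it was a KO cisplatin peak of 517 bp (32769802 to 32770319, gap 1.53 Mb), with 8.79 Mb free of peaks on its left. The peaks of chromosomes 16 and 19 each bordered the longest stretch without a peak on their chromosome, as did 19 isolated peaks in all. Whether those stretches hold mapped sequence was not examined.

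The 14 isolated KO pemetrexed peaks lay on 13 chromosomes, 1 on each except for 2 on chromosome 7. They are all given here, since they are the whole remainder of the longest list. The most isolated was 805 bp on chromosome 7 (111879328 to 111880133), with 3.35 Mb and 4.11 Mb free of peaks on its right and left. It was the only KO pemetrexed peak beyond 2 Mb. Those with gaps between 1 and 2 Mb were 744 bp on chromosome 6 (84172793 to 84173537, gap 1.65 Mb), 1134 bp on chromosome 14 (60997290 to 60998424, gap 1.48 Mb), 757 bp on chromosome 8 (81283680 to 81284437, gap 1.46 Mb) and 681 bp on chromosome 4 (113423489 to 113424170, gap 1.39 Mb). The peak on chromosome 4 was the narrowest of the 14. The widest were 1394 bp on chromosome 11 (36170379 to 36171773, gap 859.8 kb), 1390 bp on chromosome 5 (145331885 to 145333275, gap 660.1 kb) and 1351 bp on chromosome 7 (43710659 to 43712010, gap 505 kb). Also above 1 kb were 1301 bp on chromosome 12 (74710312 to 74711613, gap 517 kb) and 1049 bp on chromosome 16 (72955379 to 72956428, gap 578 kb). The others, with gaps of 556 to 886 kb, lay on chromosome 2 (177829418 to 177830385, 967 bp), chromosome 10 (17683461 to 17684255, 794 bp), chromosome 1 (195961800 to 195962572, 772 bp) and chromosome 3 (157015586 to 157016335, 749 bp). Their nearest neighbours came from KO cisplatin (6), WT cisplatin (5) and WT pemetrexed (3).

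At the edge of the rule, the 3 members with the smallest gaps were all KO cisplatin peaks, 867 bp on chromosome 10 (63440533 to 63441400, gap 501243 bp), 619 bp on chromosome 3 (142232825 to 142233444, gap 501780 bp) and 906 bp on chromosome 8 (21529080 to 21529986, gap 503142 bp). The 3 peaks just outside it were a WT pemetrexed peak of 548 bp and a KO cisplatin peak of 628 bp that faced each other on chromosome 11 across 499981 bp (79552172 to 79552720 and 79051563 to 79052191), and a KO cisplatin peak of 755 bp on chromosome 13 (44045663 to 44046418, gap 497738 bp).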

How the data were processed

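The 4 deposited files are peak lists, 1 per drug-treated library, and per the file headers they hold a chromosome, a start and an end for each peak, with no height, score or p-value. Per the submitters' processing notes, Bowtie (no version) and MACS 1.4 were used, on build hg18. The sources used here do not name the control library, the threshold or the filters, the read depth is unknown, and a deeper library or another control can change how many peaks are called and how far apart they lie. Whether starts count from 0 or 1 is not stated, so a start may be off by 1 bp. The gene and sequence tables at hand are of another build and were not used, so no peak is assigned to a gene and none is given a sequence.

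Peaks outside chromosomes 1 to 22 were left out (63 of 12579). Gaps were computed with Python 3.11.15, pandas 2.3.3 and SciPy 1.17.1, and the code was tested on simulated peaks. Intervals of shares are exact (Clopper-Pearson) at 95%, and that of the cisplatin ratio is a large-sample interval of a relative risk. No test was made, because each group has 1 library. Regions named are those with the 5 largest gaps, the 2 largest gaps, 2 widest and narrowest of each list, the 3 on each side of 500 kb and the largest gap on chromosomes 16, 17 and 19 (chromosome 22 has none). The 14 KO pemetrexed peaks and the runs were named after their values were seen. The members and results were chosen with earlier results of these data known.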

Additional observations from a re-analysis of the deposited data

Results flagged for a closer look

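Outside the chromosomes compared, the unplaced contigs held 4 peaks that had no other peak within 500 kb on their contig, of 24 peaks there. They were picked out because they lie in data that the comparisons leave out and exceed the 3 counts that a count of 0 allows. Of the 4, 2 were KO pemetrexed, 1 WT cisplatin and 1 KO cisplatin. A contig has no known place on a chromosome, so the distance to peaks elsewhere cannot be measured.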

How the results depend on the processing

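Of 108 alternative values for 12 results, 73 stayed within the 95% interval of the reported value (numbers: within 1.5 times), 35 moved and 0 reversed. Only a KO over WT ratio whose interval leaves out 1 could count as reversed, so the 0 covers the pemetrexed ratio alone. The cisplatin ratio (0.902, interval 0.727 to 1.12) could not, and it passed 1 under 1 alternative. In the order WT pemetrexed, WT cisplatin, KO pemetrexed and KO cisplatin, the isolated shares were 27.0%, 13.98%, 1.04% and 12.8% at 250 kb (1135 peaks), 4.83%, 2.33%, 0.0949% and 2.05% at 1 Mb (184 peaks), and 66.5%, 31.2%, 3.38% and 13.3% when only peaks of the same list counted as neighbours (1952 peaks). Without the WT pemetrexed list the WT cisplatin and KO cisplatin shares were 7.88% and 7.72%. Without the WT cisplatin list those of WT pemetrexed, KO pemetrexed and KO cisplatin were 19.1%, 0.455% and 7.86%. Without the KO cisplatin list those of WT pemetrexed, WT cisplatin and KO pemetrexed were 30.0%, 14.03% and 0.892%. Keeping only peaks no narrower than 600 bp, which by construction raises the medians, the shares were 0.480% for KO pemetrexed and 7.98% for KO cisplatin, and median widths were 671 bp (WT pemetrexed), 657 bp (WT cisplatin) and 765 bp (KO cisplatin). The KO over WT ratio of shares after pemetrexed was 0.0386 at 250 kb and 0.0508 within the same list, and after cisplatin 1.22 with peaks of at least 600 bp and 0.428 within the same list. Chromosomes 16, 17, 19 and 22 held 2.17% of isolated peaks at 1 Mb, 5.93% without the KO cisplatin list and 8.91% within the same list. Joining peaks within 10 kb, leaving out the KO pemetrexed list and merging overlapping peaks (the last chosen after seeing the data) moved no value past these bounds. Beyond the alternatives' own construction the cause was not tested. No paired analysis was possible because there is a single library in each group. Unknown depth limits every share.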

Other observations

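Chromosome X, left out of the comparisons, carried 10 peaks in the 4 lists together, fewer than any of chromosomes 1 to 22, where the lowest number was 142 on chromosome 18. Of these 10, 6 were KO cisplatin, 2 WT cisplatin, 2 KO pemetrexed and 0 WT pemetrexed, and 2 were isolated by more than 500 kb. The isolated X peaks were a WT cisplatin peak of 586 bp (50162894 to 50163480, gap 1.496 Mb) and a KO cisplatin peak of 375 bp (58415747 to 58416122, gap 3.20 Mb). All 10 lay between 48332904 and 61800030. Chromosome Y carried 29 peaks, 24 of KO cisplatin and 5 of WT pemetrexed, and 0 were isolated.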
